A study of Mus musculus with 4 samples.

Results

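The genes described here encode glutamate receptors and the scaffold proteins that anchor them at synapses. They are 23 receptor genes and 11 scaffold genes, 34 in all, taken by symbol from a list made with earlier results of these data known, out of 21900 protein-coding genes. A gene held a peak when the midpoint of a DHX9 peak lay in its RefSeq span in mm10. Of the 34 genes, 10 held at least 1 peak, and together they held 741 of the 43106 peaks in the list.

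DHX9 is a helicase that unwinds double-stranded RNA, and its bound RNA was mapped by FLASH, which crosslinks protein to RNA with ultraviolet light before immunoprecipitation and sequencing. The study had 4 libraries, 2 with rabbit antibody to DHX9 and 2 with rabbit IgG as background, each pair being biological replicates A and B. Both groups came from the same neural progenitor cells, grown with EGF and FGF2 from the feeder-independent male embryonic stem cell line WT26 (C57BL/6x129sV). They stand for progenitors of a single cell line in culture and not for synapse-bearing neurons. The data were 1 peak list for all 4 libraries, with a position and a strand per peak and no count, score or p-value. Replicate error, depth and expression were therefore not measured here, no test between groups could be made, and a gene with 0 peaks is a gene without a listed peak.

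Glutamate acts on ionotropic and metabotropic receptors. Ionotropic receptors (the AMPA, kainate and NMDA types, and the related delta receptors) are ion channels built from several subunits, while metabotropic receptors signal through G proteins. Scaffold proteins with PDZ or EVH1 domains bind the receptors' intracellular tails and hold them in the postsynaptic density. Neural progenitors lack mature synapses, but glutamate receptors are known to be made in developing neural tissue as well, where glutamate influences proliferation and migration.

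The number of members with a peak was close to the share among genes of like length. At least 1 peak was found in 10 of 34 members (29.4%), while 18.9% of all protein-coding genes had one. The members are long, with a median span of 197.2 kb against 17.2 kb for protein-coding genes, and 19 of them fall in the longest length decile. In that decile 39.7% of protein-coding genes had a peak, and 7 of the 19 members (36.8%) did. Averaged over the deciles in which the 34 members lie, the share of protein-coding genes with a peak was 33.6%. At least 3 peaks were found in 9 members (26.5%), where 11.4% of all protein-coding genes and 21.9% by the members' deciles had as many.

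**Figure D1:**
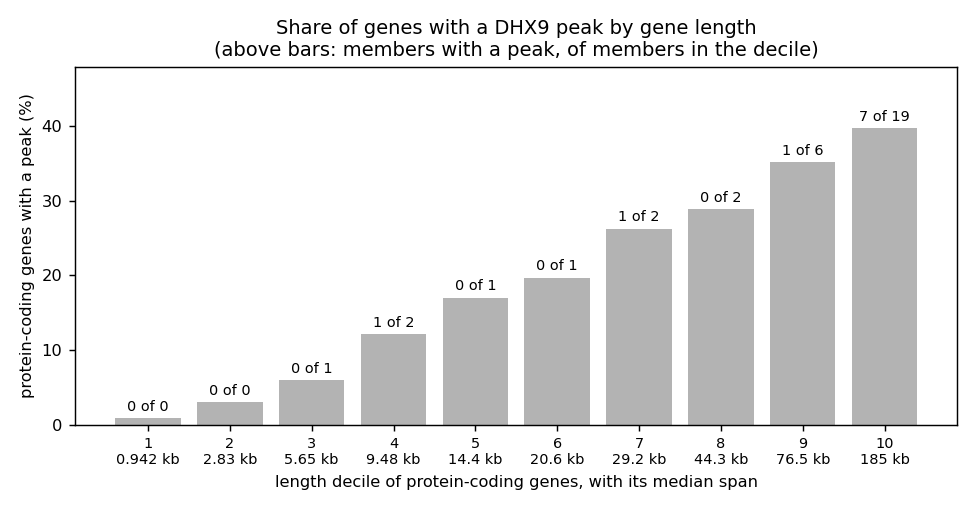
Grey bars give the percent of protein-coding genes with at least 1 DHX9 peak in each length decile (x axis, with the median span in kb), and the text above each bar gives the members with a peak out of the members in that decile. The share rises from 0.868% in decile 1 to 39.7% in decile 10, which holds 19 of the 34 members, 7 of them with a peak.

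The peaks were spread very unevenly among the 10 genes. Grm5, Grip1 and Gria4 held 675 of the 741 peaks (91.1%), and the other 7 genes held 66. Among all protein-coding genes these 3 ranked 7, 13 and 15 by number of peaks, but 568, 926 and 609 by peaks per kb of span. The 10 members had a median of 13.5 peaks, where the median over all protein-coding genes that held any was 4. These 10 members had a median span of 294.1 kb, against 17.2 kb for all protein-coding genes, and length was not matched in that comparison. Within the longest length decile alone, the 7 members with a peak had a median of 12 peaks, and all 870 protein-coding genes with a peak a median of 5.

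**Figure D2:**
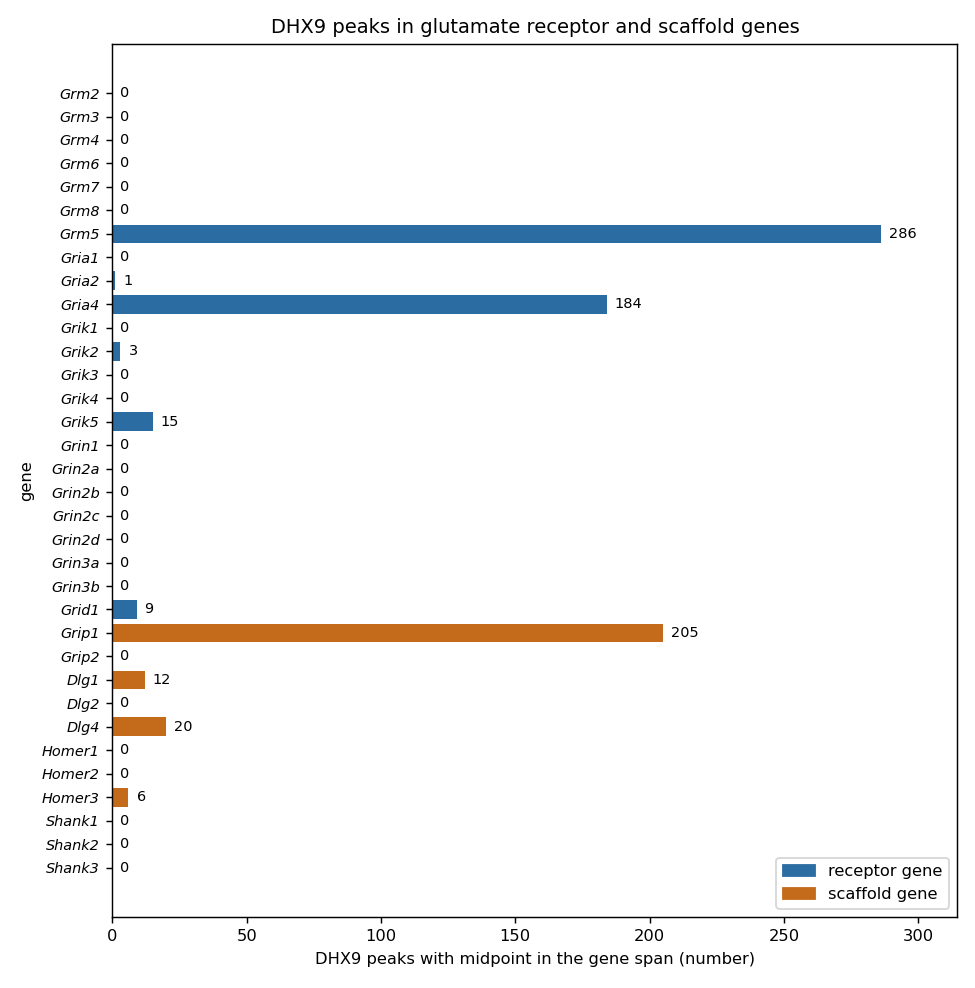
Bars give the number of DHX9 peaks whose midpoint lies in each of the 34 genes (x axis), for receptor genes in blue and scaffold genes in orange. Grm5 (286), Grip1 (205) and Gria4 (184) stand far above the other genes, of which Dlg4 with 20 is next, and 24 genes have 0.

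Among the metabotropic receptors, 1 gene of 7 carried every peak. Grm5 encodes mGluR5, a group I receptor that couples to Gq and phospholipase C, and it spans 551.1 kb of chromosome 7 (87583981 to 88135063). It held 286 peaks, all on the plus strand, or 0.519 per kb of span. The receptors of groups II and III, which inhibit adenylyl cyclase, had no peak in any of their 6 genes. In their length deciles, 12.1% to 39.7% of protein-coding genes had a peak, so most genes of like length had none. Grm2 (11.6 kb), Grm3 (240.1 kb), Grm4 (91.4 kb) and Grm6 (15.8 kb) had 0, and so did Grm7 and Grm8, whose spans of 921.9 and 860.0 kb are longer than that of Grm5. The closest peak to Grm7 lay 1162 kb away and the closest to Grm8 lay 412.7 kb away.

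Grm5 peaks gathered in the upstream part of the span, counting in the direction of the plus strand, and came in a few long runs. A run here is a chain of peaks whose neighbouring midpoints lie no more than 10 kb apart. The first run held 168 peaks (58.7%) from 18.5 to 131.9 kb after the upstream end of the gene, at 1.48 peaks per kb. A second large run of 56 peaks reached from 216.7 to 248.1 kb, at 1.77 per kb. The third, of 45 peaks, reached from 260.7 to 304.6 kb, at 1.02 per kb. Beyond it lay 130.4 kb without a peak, and the last run, of 7 peaks, began at 521.8 kb. In 5 equal parts of the span, counted from the upstream end, lay 145 (50.7%), 32, 99 (34.6%), 1 and 9 peaks. The peaks had a median length of 170.5 bases and covered 53689 bases, or 9.74% of the span. Of the 286, 6 also lay in Gm18454, an annotated pseudogene inside Grm5, and whether reads of another locus were placed there was not tested.

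The AMPA receptor genes, whose products carry most fast excitatory transmission, differed widely in their counts. Gria4 encodes the subunit GluA4 and spans 378.3 kb of chromosome 9 (4417893 to 4796234). It held 184 peaks, all on the minus strand, which is the strand annotated for the gene, at 0.486 per kb. Gria2 encodes GluA2, the subunit whose edited form blocks calcium entry and whose pre-mRNA is a classical target of the double-stranded RNA editing enzymes. It held a single peak of 120 bases on its own strand (chromosome 3, 80800518 to 80800637), 2.26 kb downstream of its annotated start. Gria1, which encodes GluA1, had 0 peaks over 318.7 kb.

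The Gria4 peaks were distributed along the gene in 10 runs and not mainly at its upstream end. The first peak lay 3.00 kb after the annotated start and the last 365.8 kb after it. The 3 largest runs held 48 peaks (143.2 to 165.6 kb), 47 peaks (340.4 to 365.8 kb) and 26 peaks (182.2 to 204.8 kb). A compact run of 17 peaks between 231.9 and 237.9 kb reached 2.77 peaks per kb. In 5 equal parts from the annotated start the counts were 26, 14, 62, 35 and 47, so the middle and the last part held most. Of the 184 peaks, 5 also lay in Gm46101, a noncoding gene annotated on the opposite, plus strand, while the peaks themselves are on the minus strand.

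Kainate receptor genes carried few peaks, in 2 of 5 genes. Grik5 encodes GluK5, which forms channels only together with another kainate subunit, and it held 15 peaks on its own minus strand over 65.8 kb of chromosome 7 (25009849 to 25075694), or 0.228 per kb. Of these, 13 formed a run of 12.3 kb between 29.5 and 41.7 kb after the upstream end of the span, and the other 2 lay near the annotated start. Grik2, which encodes the principal subunit GluK2 and whose RNA is also edited, held 3 peaks scattered over its 696.5 kb, at 27.0, 93.3 and 308.4 kb, all on its own minus strand. Grik1 (395.0 kb), Grik3 (223.9 kb) and Grik4 (426.8 kb) had 0.

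A promoter window here is the 250 bases before to 50 bases after an annotated start, and RefSeq windows were at hand for 24 of the 34 members, 38 windows in all. Of these 24 genes, only Grik5 had a peak on a window on its own strand. Across protein-coding genes, 75 of 17492 genes with a window (0.429%) had such a peak. The peak runs from 25072236 to 25072393 on the minus strand (158 bases) and spans the annotated start at 25072369, so that 24 bases of it lie before that start. The gene's span extends 3.33 kb further upstream, so those bases lie inside the gene as annotated. A second peak, from 25072704 to 25072816, lies further upstream. The sequence shown is the 250 bases before the start, from RefSeq (GRCm38.p6, chr7:25072370-25072619, minus strand, 5′ to 3′), with the bases covered by the peak in capitals.

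Grik5: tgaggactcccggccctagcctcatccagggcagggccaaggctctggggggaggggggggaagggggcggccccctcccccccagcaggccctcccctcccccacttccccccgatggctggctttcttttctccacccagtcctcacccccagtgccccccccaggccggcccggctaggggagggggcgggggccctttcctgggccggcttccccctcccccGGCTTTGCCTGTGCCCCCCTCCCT

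This stretch is rich in G and C (75.2%, where the median over all protein-coding windows was 55.6%) and in the pyrimidines C and T (60.8%, median 49.6%). Of all windows, 94.96% had a lower share of G and C and 95.3% a lower share of pyrimidines. These are descriptions of 1 sequence, and a relation to binding was not tested.

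None of the 7 NMDA receptor genes had a peak. In their length deciles, 5.94% to 39.7% of protein-coding genes had one, so most genes of like length had none either. NMDA receptors are calcium-permeable channels that need the obligatory subunit GluN1, encoded by Grin1, and their other subunits come from Grin2a, Grin2b, Grin2c, Grin2d, Grin3a and Grin3b. The spans ranged from 6.79 kb (Grin3b) to 460.4 kb (Grin2b), and Grin2a (428.2 kb) and Grin3a (184.4 kb) are also long. Peaks lay close to 2 of these genes but belonged to their neighbours: 3 peaks in Anapc2 and 2 in Man1b1 within 20 kb of Grin1, and 2 in Kdelr1 within 20 kb of Grin2d, the nearer of them 1.72 kb from the gene. All 7 of these neighbouring peaks were on the plus strand, opposite to the annotated strand of Grin1 and Grin2d.

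The delta receptor gene Grid1, whose product GluD1 acts in synapse organisation, spans 763.4 kb of chromosome 14 (34820003 to 35583387) and had 9 peaks, all on the plus strand. Of the 9, 8 lay within 4.06 kb, between 12.2 and 16.0 kb after the upstream end, and the last stood alone at 639.9 kb. At 0.0118 per kb the gene as a whole was sparse, while the run itself held 1.97 peaks per kb.

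Among the scaffolds, Grip1 stood apart from its paralog. GRIP1 is a protein with several PDZ domains that binds the tail of AMPA receptor subunits and links them to transport. Grip1 spans 634.0 kb of chromosome 10 (119453238 to 120087267) and held 205 peaks, all on its annotated plus strand, at 0.323 per kb. Grip2, which encodes the related GRIP2, had 0 peaks over 82.5 kb, with the nearest peak 264.6 kb away.

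The peaks of Grip1 lay mainly in the upstream part of the gene. A single run of 189 peaks (92.2%) extended from 1.60 to 188.2 kb after the upstream end of the span, at 1.01 per kb. In 5 equal parts the counts were 137, 55, 7, 5 and 1. RefSeq gave 3 starts for the gene, at 0.796, 366.2 and 539.7 kb. Upstream of the second start lay 199 of the 205 peaks, in sequence that, among transcripts from these starts, only those from the first contain. Downstream of it lay 6, and downstream of the third 0. Of the 205 peaks, 5 also lay in Grip1os1 and 2 in Gm51815, noncoding genes annotated on the minus strand, and 7 in the noncoding gene Gm40780, whose strand is not in the tables used here.

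**Figure D3:**
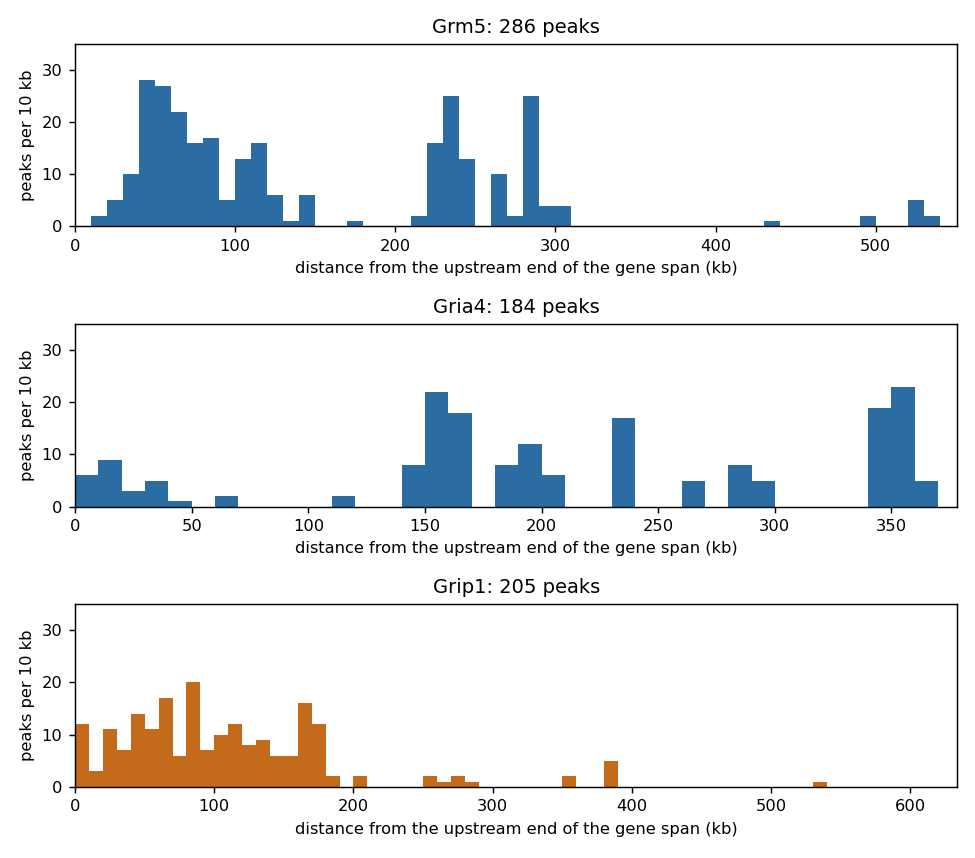
Histograms give the peaks per 10 kb (y axis) along Grm5, Gria4 and Grip1 (x axis, kb from the upstream end of the gene span in the direction of the peaks' strand). Peaks of Grip1 fill the first 188.2 kb, those of Grm5 form groups that end at 304.6 kb with few beyond, and those of Gria4 reach 365.8 kb of a 378.3 kb span.

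The DLG scaffolds, which bind NMDA and AMPA receptor complexes through PDZ domains, had peaks in 2 of 3 genes, both on the annotated plus strand. Dlg4 encodes PSD-95, the main scaffold of the postsynaptic density, and held 20 peaks over 28.3 kb of chromosome 11 (70017203 to 70045535). With 0.706 peaks per kb it was the densest of the 34 genes and denser than 91.4% of protein-coding genes with a peak. All 20 lay in 1 run of 6.98 kb, from 14.6 to 21.3 kb after the upstream end and beyond all 3 annotated starts, and no neighbouring midpoints were more than 0.672 kb apart. Their median length was 219 bases. Dlg1, which encodes SAP97, held 12 peaks over 209.9 kb of chromosome 16 (31663443 to 31873356). Of these, 11 lay between 186.2 and 189.8 kb, close to the downstream end of the gene, and 1 lay at 36.7 kb. Dlg2, which encodes PSD-93 and is the longest of the 34 genes at 1973 kb, had 0 peaks.

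Homer proteins link group I metabotropic receptors to calcium stores and to Shank. Homer3 held 6 plus-strand peaks, its annotated strand, within 1.90 kb of its 11.5 kb span (chromosome 8, 70282880 to 70294361), at 0.523 per kb. The longest of them measured 466 bases. Homer1 (101.4 kb) and Homer2 (106.4 kb) had 0. Within 20 kb downstream of Homer3 lay 8 further peaks, of which 4 were in Ddx49, 3 in Cope and 1 in no annotated gene. Shank1, Shank2 and Shank3, which encode large scaffolds that join Homer to the complexes of PSD-95, had 0 peaks over 51.2, 448.0 and 67.3 kb. In the length deciles of these 3 genes, 28.9% to 39.7% of protein-coding genes had a peak.

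**Figure D4:**
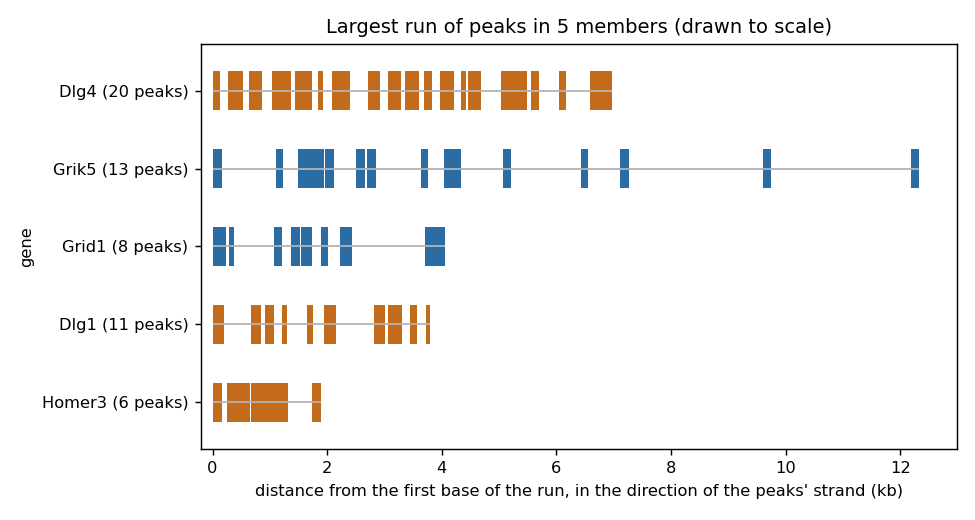
Boxes are the peaks of the largest run in 5 members, drawn to scale along the x axis (kb from the first base of the run in the direction of the peaks' strand), with receptor genes in blue and scaffold genes in orange. The runs hold 20 peaks in Dlg4, 13 in Grik5, 8 in Grid1, 11 in Dlg1 and 6 in Homer3, and measure from 1.90 kb (Homer3) to 12.3 kb (Grik5).

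Density gave another order than the counts did. Per kb of span, Dlg4 (0.706), Homer3 (0.523), Grm5 (0.519), Gria4 (0.486), Grip1 (0.323) and Grik5 (0.228) lay above 0.102, the median of protein-coding genes with a peak. Dlg1 (0.0572), Grid1 (0.0118), Gria2 (0.00815) and Grik2 (0.00431) lay below it. Since no error per gene can be given, neighbours in this order such as Homer3 and Grm5 cannot be told apart. The place of Homer3 also depends on how close peaks are counted. With peaks within 50 bases merged it held 3 in place of 6, while Dlg4 held 17 in place of 20 and Grm5 232 in place of 286. A low density over the whole span hid runs as dense as those of the leading genes, since the run in Dlg1 held 2.89 peaks per kb and that in Dlg4 2.87.

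The peaks of each of the 10 genes lay on a single strand. For 8 of them the annotated strand was in the tables used here, and all 446 of their peaks were on it. For Grm5 and Grid1 it was not, and all peaks of each lay on the plus strand. Over protein-coding genes with a known strand, 99.5% of 30403 peaks in no other gene were on the gene's own strand, so this is a property of the whole list. Of the 741 peaks, 716 lay in no other annotated gene. No peak lay within 20 kb outside the span in 9 of the 10 genes, Homer3 being the exception, so the peaks of Grm5, Gria4 and Grip1 did not continue past the ends of their genes at that distance. Of the 24 genes without a peak, 22 also had none within 20 kb. Peaks within 20 kb were not counted for all protein-coding genes, so whether these numbers are particular to the members was not tested.

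Peaks of these genes were slightly longer and closer together than those of the list. Their median length was 159 bases against 153, with a range from 56 to 613. Neighbouring midpoints of a gene and strand were a median of 430 bases apart (731 distances), and 490 over all protein-coding genes (37874 distances). Distances under 500 bases made up 57.6% in the members and 50.9% overall. Grm5 (388 bases) and Gria4 (408) were below the overall median and Grip1 (578) above it, so the 3 main genes did not share a spacing. With peaks of a gene not independent of each other and 3 genes giving most of them, these differences were not tested. The same holds for position: the first 20% of the span held 43.5% of the members' peaks and 29.1% of those in protein-coding genes with a known strand. The members' figure came mainly from Grm5 and Grip1. The second 20% went the other way, with 14.0% in the members and 23.3% in those genes. The difference is therefore smaller over the first 40%, which held 57.5% of the members' peaks.

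Genes that act with these receptors were read in the same way, from lists chosen with earlier results of these data known. Each count is set beside the share of protein-coding genes with a peak averaged over the length deciles of the list's genes, and none of the differences was tested. Auxiliary subunits of AMPA and kainate receptors had a peak in 4 of 14 genes (28.6%, against 31.9% by length decile). Cacng7, a transmembrane AMPA receptor regulatory protein gene, held 26 peaks, and the kainate receptor auxiliary genes Neto2 and Neto1 held 14 and 13. Other postsynaptic scaffold and adaptor genes had a peak in 11 of 25 (44.0%, against 34.8%), with 17 of the 25 in the longest length decile. Tanc1 held 14, Magi2 12 and Anks1b 9. Effectors of the receptors had a peak in 11 of 18 (61.1%, against 35.4%), with 10 of the 18 in the longest length decile and 7 of those 10 with a peak. They were led by the G protein genes Gnao1 (17), Gnai2 (12) and Gnaq (11), the last of which serves group I receptors. The 26 peaks of Cacng7 were the most of any gene in these 3 lists, fewer than in Grm5, Gria4 or Grip1.

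Genes for making glutamate and loading it into vesicles had a peak in 1 of 6 (16.7%, against 21.7%), the glutamate dehydrogenase gene Glud1 (10), and none of the 3 vesicular transporter genes Slc17a6, Slc17a7 and Slc17a8 had one. Receptors of the inhibitory transmitters GABA and glycine and their scaffolds, 11 of 20 of them in the longest decile, had a peak in 3 (15.0%, against 35.1%). The most were in Gphn, which encodes the scaffold gephyrin (10), followed by Gabbr1 (2) and Gabra2 (1). The other 17 genes had 0. Among the 23 glutamate receptor genes, 6 (26.1%, against 33.6% by length decile for all 34 members) had a peak and 17 had 0. Most genes of both groups had none, as did most protein-coding genes, of which 18.9% had a peak (39.7% in the longest length decile).

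**Figure D5:**
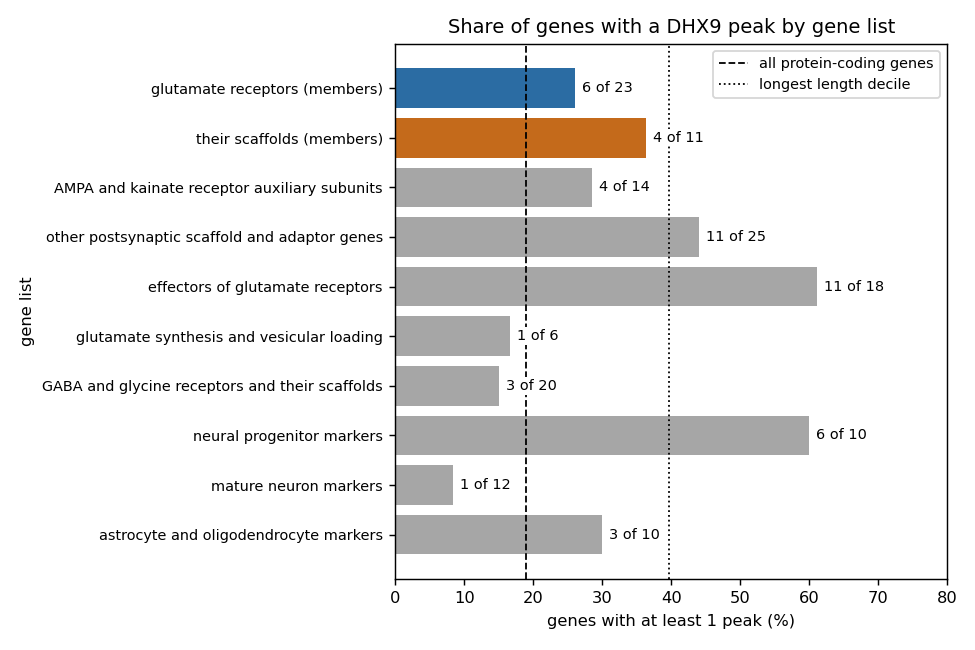
Bars give the percent of genes with at least 1 DHX9 peak (x axis) in the member receptors (blue), the member scaffolds (orange) and 8 further gene lists (grey), with the counts beside each bar. The dashed line is the share of all protein-coding genes (18.9%) and the dotted line that of the longest length decile (39.7%). Receptors (26.1%) and scaffolds (36.4%) lie between them. By length decile the share for the 34 members together was 33.6%, with the receptors below it and the scaffolds above. It was not computed for each class.

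Markers of cell types were read against the 18.9% of all protein-coding genes with a peak and against genes of like length. These lists too were chosen with earlier results of these data known, so their shares are descriptions and not tests. Of the neural progenitor markers, with a median span of 8.94 kb, 6 of 10 had a peak (60.0%, against 16.9% by length decile). They were led by the glutamate transporter gene Slc1a3 (122), Ptprz1 (64) and Notch1 (21). Fabp7 held 4, Sox9 and Vim held 1 each, and Sox2, Nes, Pax6 and Hes1 had 0. At least 3 peaks were found in 4 of these 10 markers. Of 12 mature neuron markers (median span 54.9 kb), Map2 (46) had peaks and the other 11 had none (8.33%, against 27.0%). Of 10 astrocyte and oligodendrocyte markers (median span 15.6 kb), 3 had one (30.0%, against 18.4%), Olig1 with 4, Olig2 with 2 and Pdgfra with 1. These counts do not establish the cell type. A peak needs both the RNA and binding, which a peak list does not separate, so the part of expression in the pattern among the 34 genes was not tested.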

How the data were processed

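Per the labels' protocols, RNA crosslinked to DHX9 was sequenced from neural progenitor cells, with rabbit IgG as control, and random bases marked PCR duplicates. The authors deposited 1 list of PEAKachu peaks, per the file itself, whose values are start and end positions in genome bases with a strand; it holds no score. Per the submitters' processing notes, the tools and builds named are Bowtie2 2.2.6, hg19 and mm10, with no role given; the positions were read as mm10. The caller's version, settings, threshold and handling of multiply mapping reads are not given in the sources used here.

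Gene spans came from a RefSeq table of GRCm38.p6 (mm10), and strands, starts and sequences from RefSeq promoter windows. Exons were not used here, so introns could not be told from exons. Peaks were assigned by midpoint with Python 3.11.15 and pandas 2.3.3. The assignment was checked on invented peaks. The members and lists were chosen with earlier results of these data known. All 34 members are named, with up to 3 genes of each other list having the most peaks; neighbours, and marker genes with or without a peak, were named after their values were seen. Some genes of these families and lists are not reported here. Alternatives were longer peaks, merging within 50 bases, any overlap, peaks in no other gene, and at least 3 peaks per gene.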

Additional observations from a re-analysis of the deposited data

How the results depend on the processing

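With shorter peaks removed, up to the median length (21796 of 43106 kept, by construction), the members held 406 peaks in place of 741 and a median density of 0.175 per kb in place of 0.276; Gria2 then had no peak, leaving 9 genes. The other 23 values for genes with a peak, peaks, density, strand, position and spacing stayed within 1.5 times of their main value, or within its 95% binomial interval (exact) for shares, under all alternatives run. Merging gave 630 peaks, and peaks in no other gene 716. These values are for the members together, and single genes could move more, as Homer3 did with merging (6 to 3 peaks). Of the other lists' 16 values, 3 fell by more than 1.5 times with at least 3 peaks per gene: other scaffold and adaptor genes from 11 to 7, GABA and glycine genes from 3 to 1, and astrocyte and oligodendrocyte markers from 3 to 1. No paired analysis was possible because the 4 libraries share 1 peak list, and for the same reason no replicate could be left out. The list gives no depth, so no counting error could be given.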
